A study of Mus musculus with 9 samples.

Results

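The small leucine-rich proteoglycans are secreted matrix proteins built around a row of leucine-rich repeats. The members followed here were the genes Fmod, Dcn, Lum, Bgn, Ogn, Aspn, Kera, Prelp and Omd, together with Chad, whose product chondroadherin has the same repeats. They were chosen by name as a gene family, and every probe set annotated to 1 of these symbols alone was taken. This gave 21 probe sets of 10 genes, of 45037 probe sets and 18193 genes measured. Members bind fibrillar collagens with their concave face and set how fibrils assemble and how thick they become. Many of them carry sulfated sugar chains, which are chondroitin or dermatan sulfate on decorin and biglycan and keratan sulfate on fibromodulin, lumican, keratocan and osteomodulin. Several, among them decorin, biglycan and asporin, can also bind TGF-β, and fibromodulin is a known component of the annulus fibrosus of the intervertebral disc.

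Sclerotome, the ventral part of the somite that gives rise to vertebrae and discs, was dissected from wild type mouse embryos at E11.5 and grown as dense micromass drops. The 3 groups held 3 arrays each: cultures with TGF-β1 (5 ng/ml), cultures with BMP4 (50 ng/ml) and untreated cultures, all collected for RNA at 8 hours. All cultures shared the same serum-containing medium and no genetic alteration, and neither strain nor number of embryos per culture was stated. By the sample records the factors were given once the cells had been cultured overnight, whereas by the culture protocol they were in the medium first added over the attached cells. Which applies to the arrays is not known. The replicates are numbered 1 to 3 and are described as repeats of the whole set-up. The labels do not state that equal numbers mark the same set-up. P values without a term for the replicate number measure the spread between repeats within a group. Those from a fit blocked on the number measure the spread left once the number is accounted for. Values are log2 signals that had been centred on the median of the 9 arrays for each probe set, so 0 is that median and levels cannot be compared between genes. For the same reason it could not be judged whether a member, or a marker of sclerotome, was above background.

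Omd stood lower with TGF-β1 within every replicate number. Its promoter and those of the 3 members that rose with TGF-β1 are shown because the results below turn on these genes. They run from 250 bases before to 50 bases after the start of the gene in the RefSeq table of build GRCm38.p6, which held 8 of the 10 members. Capitals mark matches, on either strand, to 5 short motifs: CAGAC, bound by Smad proteins, GGCGCC, a GC-rich Smad motif, CATCTG, an E-box, ACAAT, the core of Sox motifs, and TATAAA, the TATA box. Fmod lies at chr1:134037004-134037303 (plus strand), Chad at chr11:94564797-94565096 (plus strand), Bgn at chrX:73483351-73483650 (plus strand) and Omd at chr13:49582212-49582511 (plus strand).
Fmod: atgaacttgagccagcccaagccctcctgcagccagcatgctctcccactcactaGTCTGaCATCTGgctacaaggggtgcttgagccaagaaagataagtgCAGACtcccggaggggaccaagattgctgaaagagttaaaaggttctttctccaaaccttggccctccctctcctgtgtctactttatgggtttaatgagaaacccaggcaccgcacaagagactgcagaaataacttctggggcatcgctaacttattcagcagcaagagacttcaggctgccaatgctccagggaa
Chad: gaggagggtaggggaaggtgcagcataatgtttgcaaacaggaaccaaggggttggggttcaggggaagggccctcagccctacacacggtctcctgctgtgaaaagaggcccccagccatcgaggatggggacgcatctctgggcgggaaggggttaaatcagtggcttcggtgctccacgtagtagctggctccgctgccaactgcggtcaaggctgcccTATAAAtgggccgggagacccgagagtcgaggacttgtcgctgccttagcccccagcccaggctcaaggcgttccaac
Bgn: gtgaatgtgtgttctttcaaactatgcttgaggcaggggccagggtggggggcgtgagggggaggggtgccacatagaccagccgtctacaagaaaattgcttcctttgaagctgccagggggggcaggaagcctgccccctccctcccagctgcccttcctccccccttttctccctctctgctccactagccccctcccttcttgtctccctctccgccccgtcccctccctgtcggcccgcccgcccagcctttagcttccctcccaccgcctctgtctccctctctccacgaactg
Omd: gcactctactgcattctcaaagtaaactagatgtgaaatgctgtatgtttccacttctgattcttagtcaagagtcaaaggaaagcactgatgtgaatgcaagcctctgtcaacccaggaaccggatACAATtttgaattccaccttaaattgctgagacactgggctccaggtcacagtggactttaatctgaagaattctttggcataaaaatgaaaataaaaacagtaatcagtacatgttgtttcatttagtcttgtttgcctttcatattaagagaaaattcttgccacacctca

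Fmod held 2 matches to CAGAC and 1 to CATCTG, whereas Chad held only the TATA box, at position -28 counted from the first transcribed base. Bgn held 0 matches to any of the motifs, and Omd held 1 match to ACAAT. Among the other members Prelp held 3 matches to CAGAC, Kera held 2 to ACAAT, and Aspn and Ogn each held 2 to TATAAA (overlapping each other in Ogn) and 1 to ACAAT. Of all 32851 promoters in the table, 49.6% held CAGAC, 11.9% GGCGCC, 17.2% CATCTG, 31.0% ACAAT and 13.6% TATAAA. The members whose RNA rose with TGF-β1 thus shared none of these motifs, and the matches are given as a description of the sequence only.

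TGF-β1 cultures were set against untreated ones to ask what TGF-β1 changes in sclerotome cells. Fmod, Chad and Bgn rose, and no member was called lower without a replicate block. At an adjusted p under 0.05 (limma, Benjamini-Hochberg over all 45037 probe sets) 10 of the 21 member probe sets were higher, against 1.83% of all probe sets, and 0 were lower, against 2.60%. These were the 6 of Fmod, the 3 of Bgn and the 1 of Chad. In the same 10, and in no other member probe set, the TGF-β1 arrays all stood above the untreated arrays (9.87% of all probe sets), and 0 stood wholly below (12.0%). Without adjustment 11 member probe sets had p under 0.05. The share of all probe sets or genes at an unadjusted p under 0.05 was not counted, for this count or for those below. By gene, taking the probe set with the largest variance, 3 of 10 rose, against 2.54% of all genes. The median difference was 0.38, against 0.01 over all genes. The arrays measure RNA of the whole culture, so that fewer cells of a type and less RNA per cell cannot be told apart. Beside these results, the mean centred value of the 7 skeletal muscle markers ran from -0.29 to -0.08 on TGF-β1 arrays, against 0.03 to 0.13 on untreated arrays. None of the 7 was called lower (limma, 4 with an unadjusted p under 0.05). In the fit with the replicate number as a term Myod1, Myf5 and Pax7, 3 of the 7, were lower, against 8.29% of all genes. The mean of the 6 measured blood and macrophage markers ran from -0.17 to 0.08 on TGF-β1 arrays, against 0.09 to 0.22 on untreated arrays. Of the 6 only Cd68 was called lower (-0.46), against 4.21% of all genes. Of the 5 neuron markers 0 were called (1 with an unadjusted p under 0.05), and Dcx was lower in the fit with the number (-0.57). Of the 9 sclerotome markers 0 were called (median -0.19, 3 with an unadjusted p under 0.05), and 1 was lower in the fit with the number. The part of these in the result was not tested.

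Fmod encodes fibromodulin, a collagen-binding keratan sulfate proteoglycan of tendon, annulus and cartilage. Its probe set 1437718_x_at read 2.08, 2.60 and 1.79 on TGF-β1 arrays 1 to 3, against -0.14, -0.38 and -0.60 on untreated arrays. The lowest TGF-β1 array stood far above the highest untreated array, and the groups did not overlap. The difference was 2.53 ± 0.20 (SE), a 5.77-fold rise (limma, adjusted p = 0.000206). The 6 Fmod probe sets gave differences of 2.19 to 2.53 and took ranks 5 to 13 among all 45037 probe sets ordered by rise. They share a transcript and in part probe sequence, so they are repeated readings of 1 gene rather than independent evidence.

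Chad encodes chondroadherin, a cartilage protein that binds type II collagen and integrin. It read 1.35, 2.67 and 1.15 on TGF-β1 arrays, against -0.86, -0.66 and -1.23 on untreated arrays. Here too the groups were well apart, with TGF-β1 array 2 above the other TGF-β1 arrays. The rise was 2.64 ± 0.39 (SE), or 6.24-fold (limma, adjusted p = 0.00589), with a 95% interval of 1.77 to 3.51. Its rise ranked 3 among all probe sets, and its spread between TGF-β1 arrays (SD 0.83) was larger than that of Fmod 1437718_x_at (SD 0.41).

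Bgn encodes biglycan, the chondroitin or dermatan sulfate proteoglycan closest to decorin, and its rise was small but tight. Probe set 1448323_a_at read 0.47, 0.60 and 0.48 on TGF-β1 arrays, against -0.01, -0.01 and -0.08 on untreated arrays. The spread within each group (SD 0.07 with TGF-β1 and 0.04 without treatment) was small beside the gap. The difference was 0.55 ± 0.07 (SE), or 1.46-fold (limma, adjusted p = 0.00299), and the other Bgn probe sets gave 0.47 and 0.45. Without the 3 arrays numbered 2, the calls of Bgn 1416405_at and 1437889_x_at were lost, which left 8 member probe sets.

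**Figure D1:**
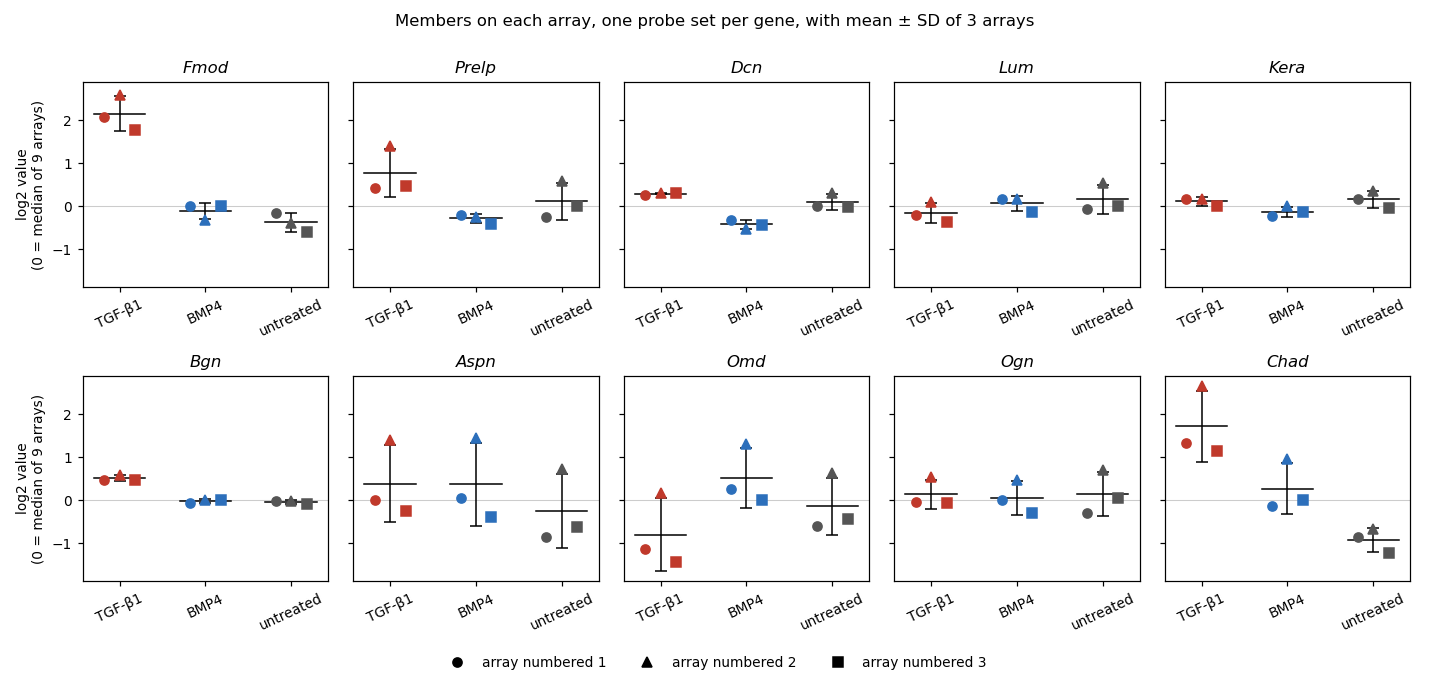
Centred log2 value (y axis, 0 is the median of the 9 arrays) of 1 probe set per member on TGF-β1, BMP4 and untreated arrays, with circles, triangles and squares for arrays numbered 1, 2 and 3 and bars for mean ± SD (n = 3 arrays). TGF-β1 arrays stand above untreated arrays for Fmod, Chad and Bgn, and the triangle is the highest point of every group for Aspn, Omd, Ogn, Chad, Lum and Bgn.

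The other 7 members were not called with TGF-β1 in the fit without a replicate block. Aspn encodes asporin, which carries a run of aspartates in place of sugar chains and can inhibit TGF-β. Probe set 1416652_at read 0.00, 1.41 and -0.25 on TGF-β1 arrays, against -0.86, 0.74 and -0.61 on untreated arrays. The groups overlapped because the arrays numbered 2 were high in both, while within each number the TGF-β1 array was the higher one, by 0.86, 0.67 and 0.36. The difference of 0.63 ± 0.58 (SE) had an adjusted p of 0.611 (limma), and in a fit blocked on replicate number it was 0.63 ± 0.12 with an adjusted p of 0.0160. The other Aspn probe set, 1448421_s_at, behaved in the same way (0.58, adjusted p = 0.627, and 0.00484 with the block).

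Omd encodes osteomodulin (osteoadherin), a keratan sulfate proteoglycan of bone. It read -1.13, 0.17 and -1.43 on TGF-β1 arrays, against -0.61, 0.63 and -0.44 on untreated arrays. The groups overlapped, yet the TGF-β1 array was the lower one within each number. The difference was -0.66 ± 0.48 (SE, adjusted p = 0.503), and with the block -0.66 ± 0.11 with an adjusted p of 0.00898 (limma). With the block 12 member probe sets were higher, against 3.73% of all probe sets, and 1 was lower, against 5.22%, the added ones being both of Aspn and that of Omd.

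Prelp encodes a heparin-binding member without sugar chains that links basement membranes to the matrix. Probe set 1416321_s_at read 0.44, 1.41 and 0.47 on TGF-β1 arrays, against -0.24, 0.60 and 0.00 on untreated arrays. Untreated array 2 lay above TGF-β1 arrays 1 and 3, and the difference of 0.66 ± 0.27 (SE) had an adjusted p of 0.221 (limma), or 0.0545 with the block. Dcn, Lum, Kera and Ogn encode decorin, lumican, keratocan and osteoglycin (mimecan). Dcn 1449368_at differed by 0.20 (95% interval -0.02 to 0.43), Lum by -0.32 (-0.70 to 0.06), Kera by -0.05 (-0.30 to 0.20) and Ogn 1419662_at by -0.0029 (-0.61 to 0.60). The interval of Ogn was the widest of these, and none of the 4 genes passed with or without the block.

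BMP4 was also compared with untreated cultures, to ask what a factor that promotes cartilage changes in the same cells; the same untreated arrays served both comparisons. In the fit of the 3 groups without a replicate block, only Dcn was called, and it was lower. A fit with such a block, which calls further members higher, is given with the processing alternatives, since same-numbered BMP4 and untreated arrays did not all deviate together. The 1 called probe set of the 21 was Dcn 1449368_at, against 3.13% of all probe sets called lower, and 0 were called higher, against 2.31% (limma, adjusted p under 0.05). Without adjustment 3 member probe sets had p under 0.05 (share of all probe sets not counted). By gene the median difference was -0.03, against 0.00 over all genes. Member arrays did not overlap for 2 probe sets that stood higher (Chad and Bgn 1416405_at), against 9.71% of all probe sets, and for 1 lower (Dcn), against 10.3%.

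Dcn encodes decorin, the dermatan sulfate proteoglycan that decorates type I collagen fibrils. Probe set 1449368_at read -0.31, -0.51 and -0.43 on BMP4 arrays, against 0.00, 0.31 and -0.02 on untreated arrays. All 3 BMP4 arrays lay below all untreated arrays. The difference was -0.52 ± 0.10 (SE, limma, adjusted p = 0.0152), a 1.43-fold fall. The other Dcn probe set, 1441506_at, overlapped between the groups and gave -0.25 ± 0.14 (adjusted p = 0.447). The call was lost without BMP4 replicate 2 (adjusted p = 0.0661), without the 3 arrays numbered 2 (-0.36, adjusted p = 0.121), with the 2 groups fitted alone (0.0545) and for the mean of both probe sets (0.0587).

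Chad read -0.12, 0.96 and 0.00 on BMP4 arrays, against -0.86, -0.66 and -1.23 on untreated arrays. Every BMP4 array was above every untreated array, BMP4 array 2 by the most. The difference was 1.19 ± 0.39 (SE), or 2.29-fold, with an adjusted p of 0.127 (limma). Whether it passed depended on the setting: it did in the fit with a replicate block just named, and also without TGF-β1 replicate 2 (adjusted p = 0.0363), without the 3 arrays numbered 2 (0.98, adjusted p = 0.0169) and after renewed quantile normalization (1.31, adjusted p = 0.0384). Fmod, the member that moved most with TGF-β1 beside Chad, differed by only 0.27 with BMP4 (1437718_x_at, 95% interval -0.16 to 0.71, adjusted p = 0.566).

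Omd and Aspn stood higher with BMP4 within each number, by 0.86, 0.69 and 0.44 for Omd and by 0.92, 0.72 and 0.22 for Aspn 1416652_at. The groups overlapped, and neither passed without a block (Omd 0.66 ± 0.48 SE, adjusted p = 0.565; Aspn 0.62 ± 0.58 SE, adjusted p = 0.689, limma). Kera, a keratan sulfate proteoglycan of cornea, differed by -0.29 ± 0.11 (SE, adjusted p = 0.209), and Prelp 1416321_s_at by -0.40 ± 0.27 (adjusted p = 0.531). Lum, Ogn and Bgn 1448323_a_at lay between -0.09 and 0.02. Sclerotome markers moved beside these values. Of the 9 marker genes 6 were called lower with BMP4 (median -0.79), against 4.51% of all genes. The mean centred value of the 9 ran from -0.52 to -0.46 on BMP4 arrays, against 0.01 to 0.44 on untreated arrays. Of the 6 measured notochord and epithelium markers 1 was called lower. Their mean centred value ran from -0.44 to -0.14 on BMP4 arrays, against -0.06 to 0.04 on untreated arrays. Of the 7 skeletal muscle markers 1 was called higher, against 3.45% of all genes. No neuron, endothelium, or blood and macrophage marker was called. The part of these in the Dcn result was not tested.

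The direct comparison of TGF-β1 with BMP4 tests whether the members stood apart between the factors. In the fit without a replicate block, Fmod, Bgn, Dcn and Prelp were higher with TGF-β1, and no member was called lower. With the block Chad was also called higher and Omd was called lower, as given below. Without the block 11 of the 21 probe sets were called higher, against 3.41% of all probe sets, and 0 lower, against 3.49% (limma, adjusted p under 0.05). The arrays did not overlap for 13 that stood higher, against 12.0% of all probe sets, and for 0 that stood lower, against 13.5%. Without adjustment 13 had p under 0.05 (share of all probe sets not counted), and by gene the median difference was 0.38, against 0.01 over all genes. The 6 Fmod probe sets differed by 2.06 to 2.26 and the 3 of Bgn by 0.37 to 0.53.

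**Figure D2:**
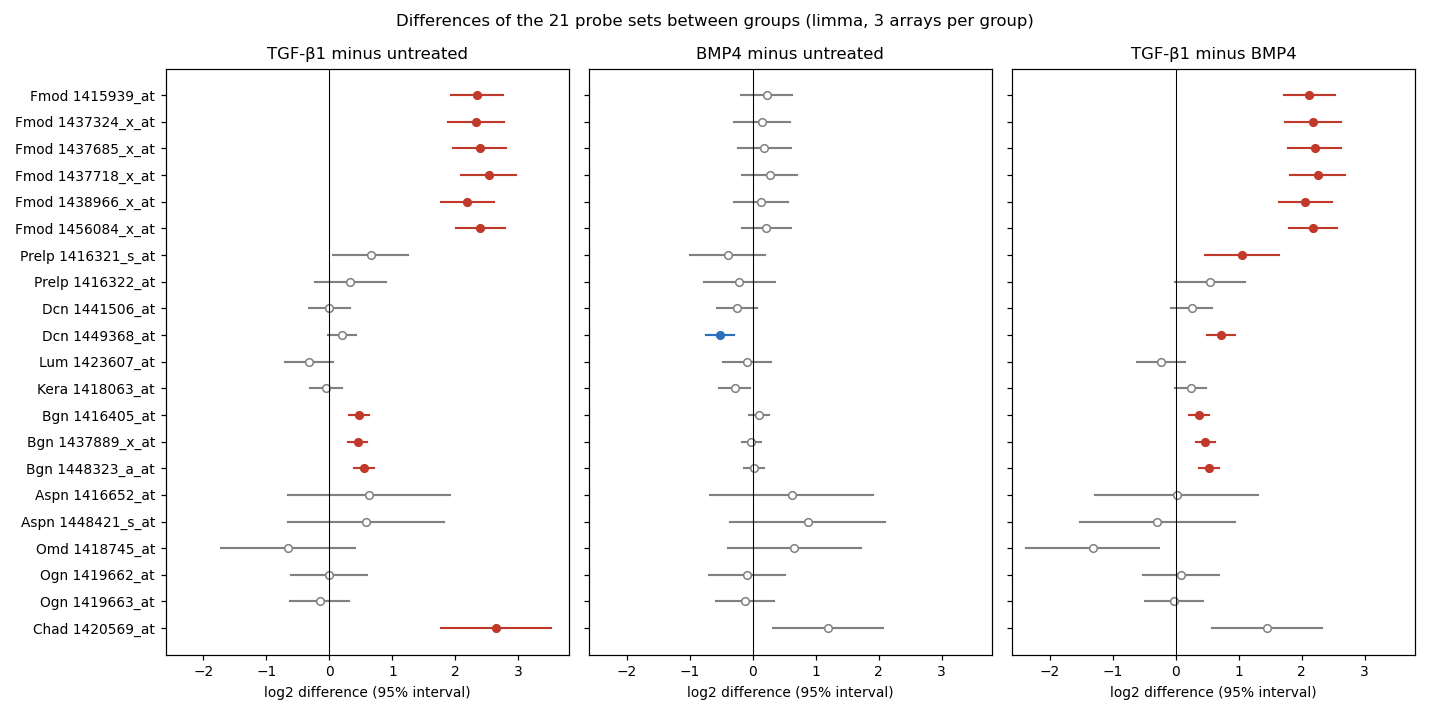
Log2 difference (x axis) with 95% interval for each of the 21 probe sets in 3 comparisons of 3 arrays each (limma), filled where the adjusted p was under 0.05, red for higher and blue for lower in the group named first. All 6 probe sets of Fmod and all 3 of Bgn are filled in both panels with TGF-β1, and Aspn and Omd have the widest intervals.

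For Dcn 1449368_at the TGF-β1 arrays read 0.28, 0.30 and 0.31, against -0.31, -0.51 and -0.43 on BMP4 arrays. The TGF-β1 arrays nearly coincided (SD 0.02) and lay far from the BMP4 arrays (SD 0.10). The difference was 0.72 ± 0.10 (SE), or 1.64-fold (limma, adjusted p = 0.00216), whereas Dcn 1441506_at gave 0.25 ± 0.14 (adjusted p = 0.384). Prelp 1416321_s_at read 0.44, 1.41 and 0.47 on TGF-β1 arrays, against -0.19, -0.25 and -0.40 on BMP4 arrays. The groups were apart, with TGF-β1 array 2 far above the others. The difference was 1.05 ± 0.27 (SE, limma, adjusted p = 0.0424), and that of 1416322_at was 0.54 ± 0.25 (adjusted p = 0.265, or 0.0324 with the block). The Prelp call was lost on leaving out any of the 3 BMP4 arrays, TGF-β1 replicate 2 or 3, or untreated replicate 3, with adjusted p up to 0.109. Beside these values, 4 of the 9 sclerotome markers were higher with TGF-β1 than with BMP4 and 1 was lower, against 4.73% and 5.38% of all genes. The mean centred value of the 9 ran from -0.02 to 0.13 on TGF-β1 arrays, against -0.52 to -0.46 on BMP4 arrays. The part of this in the Dcn and Prelp results was not tested.

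Chad stood higher with TGF-β1 than with BMP4 within each number, by 1.47, 1.72 and 1.15. The 3 TGF-β1 arrays (1.35, 2.67 and 1.15) were all above the highest BMP4 array (0.96). The difference was 1.45 ± 0.39 (SE) with an adjusted p of 0.0554 (limma), which became 0.00203 with the block and 0.0343 without BMP4 replicate 2. Omd went the other way, at -1.13, 0.17 and -1.43 on TGF-β1 arrays, against 0.26, 1.32 and 0.00 on BMP4 arrays. Only TGF-β1 array 2 and BMP4 array 3 kept the groups from parting, and within each number TGF-β1 was lower by a similar amount. The differences by number were -1.39, -1.15 and -1.43. Their mean was -1.32 ± 0.48 (SE, adjusted p = 0.146), and with the block -1.32 ± 0.11 (limma, adjusted p = 0.000188). Aspn 1416652_at did not part the factors (0.01 ± 0.58 SE), nor did Ogn, Lum or Kera, whose differences lay between -0.23 and 0.24. With the block 13 member probe sets were higher, against 5.55% of all probe sets, and 1 was lower, against 6.11%.

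The replicate number itself was followed because earlier results of these data had shown the arrays numbered 2 to stand apart. Arrays numbered 2 were set against those numbered 1 and 3 with the treatment in the model. The number was picked with that known. The labels do not state that it marks a set-up, and if it does it stands for only 1 repeat. The values are therefore a description of these arrays, and the threshold serves only to count. Of the 21 probe sets 7 passed an adjusted p under 0.05 in limma as higher on the arrays numbered 2, against 2.37% of all probe sets, and 0 as lower, against 1.76%. They belonged to Aspn, Omd, Ogn, Chad and Prelp. By gene 4 of 10 passed and the median difference was 0.47, against -0.01 over all genes. The share of all genes that passed was not counted. The counts by gene for the replicate number, here and for the markers and collagens below, thus have only the probe set shares to be read against. Without the arrays numbered 3 the count of member probe sets fell to 4, and without those numbered 1 it was 7.

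Aspn 1416652_at was higher on array 2 by 1.54 with TGF-β1, by 1.63 with BMP4 and by 1.48 without treatment. The pooled difference was 1.55 ± 0.10 (SE), and that of 1448421_s_at was 1.43 ± 0.07. These shifts were larger than any difference of Aspn between treatments. Omd was higher by 1.46 with TGF-β1, by 1.19 with BMP4 and by 1.15 without treatment (1.27 ± 0.10 SE). Ogn, which encodes osteoglycin, a small member with a keratan sulfate chain in some tissues, was higher by 0.58, 0.64 and 0.82 in the same order (1419662_at, 0.68 ± 0.10 SE). In each of these genes the shift had the same sign under every treatment, and whether its size differed was not tested.

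The shift of Chad was unequal, at 1.42 with TGF-β1, 1.02 with BMP4 and 0.38 without treatment (0.94 ± 0.17 SE). Fmod showed no common shift: 1437718_x_at was higher on array 2 by 0.67 with TGF-β1, but differed by -0.33 with BMP4 and by -0.01 without treatment. Bgn shifted little, by 0.12 with TGF-β1, 0.05 with BMP4 and 0.04 without treatment for 1448323_a_at. Lum missed the threshold (0.36 ± 0.09 SE).

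**Figure D3:**
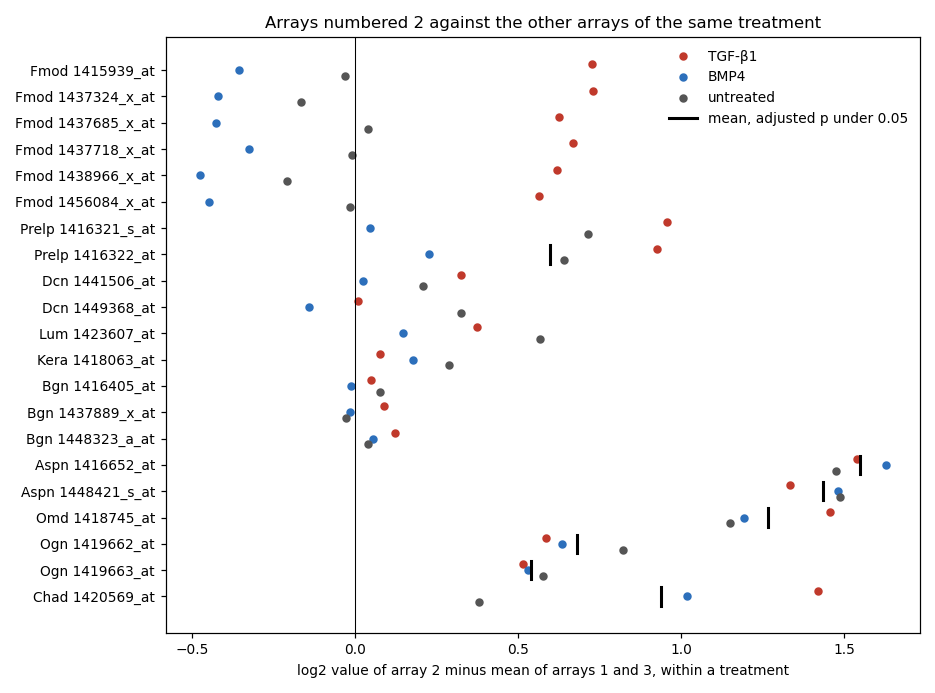
Centred log2 value of array 2 minus the mean of arrays 1 and 3 of the same treatment (x axis) for each of the 21 probe sets, with 1 point per treatment and a black bar at the mean of the 3 where the adjusted p was under 0.05. The points of Aspn, Omd and Ogn lie close together to the right of 0, whereas those of Fmod lie on both sides of it.

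Markers of other cells moved with the number as well. Of the 5 neuron markers 3 passed as lower on the arrays numbered 2 (Tubb3 -1.05, Stmn2 -0.81 and Elavl4 -0.65). The mean centred value of the list ran from -0.54 to -0.27 on arrays numbered 2, against 0.00 to 0.14 on the others. Of the 7 skeletal muscle markers 2 were lower (Des -0.38 and Pax3 -0.50), with list means of -0.29 to 0.10 on arrays numbered 2, against -0.18 to 0.13 on the others. Kdr, 1 of the 6 endothelium markers, was lower (-0.47), and Csf1r and Adgre1, 2 of the 6 blood and macrophage markers measured, were higher (0.29 and 0.41). The sclerotome genes Pax1 and Pax9 (2 of 9 markers) were higher, by 0.62 and 0.46. Of the 13 collagens that form or coat fibrils 3 passed as higher and 0 as lower. The median of these 13 was 0.01, against -0.01 over all genes. The list held the cartilage collagens Col11a2, Col11a1 and Col2a1, which were higher by 1.38, 0.63 and 0.48. The part of any of these in the shift of the members was not tested.

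Several members are neighbours on their chromosomes. Among protein-coding genes of the RefSeq table, Ecm2, Aspn, Omd and Ogn follow one another on chromosome 13, Dcn, Lum, Kera and Epyc on chromosome 10, and Optc, Prelp and Fmod on chromosome 1, while Bgn lies on X and Chad on 11. Every probe set of Aspn, Omd and Ogn passed as higher on the arrays numbered 2, whereas their neighbour Ecm2, an extracellular leucine-rich repeat protein, shifted by only 0.08 and did not pass. With TGF-β1 against untreated, the neighbours Omd and Aspn gave -0.66 and 0.63, neither called without the block. In the row of Dcn, only Dcn differed between TGF-β1 and BMP4 among the members (0.72, against -0.23 for Lum and 0.24 for Kera). Epyc, which encodes epiphycan of growth cartilage, was lower with TGF-β1 than with BMP4 (-1.34 ± 0.26 SE, limma, adjusted p = 0.0134). Prelp and Fmod lie side by side and both were higher with TGF-β1 than with BMP4.

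The other genes on which the members depend were followed as lists. Of 8 further leucine-rich repeat proteoglycans 6 were measured, and none was called against untreated cultures with either factor (limma, with unadjusted p under 0.05 in 2 with TGF-β1 and in 1 with BMP4). With the block Epyc was called lower with TGF-β1 (-0.59, adjusted p = 0.0173, against 0.266 without it), where 5.07% of all genes were called higher and 8.29% lower. Without a replicate block 6 of the 13 collagens that form or coat fibrils, the partners that the members bind, were lower with BMP4. None was higher in that fit, and 4.51% of all genes were lower and 3.45% higher. The lower ones were Col6a3 (-1.60), Col1a2 (-0.76), Col3a1 (-0.62), Col5a2 (-0.54), Col6a2 (-0.45) and Col5a1 (-0.39), and the list's median was -0.31, against 0.00 over all genes. With the block 3 of the 13 were called higher and 6 lower with BMP4. With TGF-β1 only Col5a1 was higher (0.35, 1 of its 3 probe sets called), and Col6a1 and Col6a2 were lower (-0.34 and -0.46), against 2.54% and 4.21% of all genes. Against BMP4, TGF-β1 cultures had 5 of the 13 higher and 0 lower, against 4.73% and 5.38% of all genes. With the block 6 were higher and 3 lower (Col11a2, Col11a1 and Col2a1), against 7.46% and 9.30%.

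Sugar chains are built on the members by separate enzymes. Beside the calls below, 3.45% of all genes were called higher and 4.51% lower with BMP4, and 2.54% and 4.21% with TGF-β1. Of 21 measured genes of chondroitin and dermatan sulfate synthesis, Chst11, a chondroitin sulfotransferase, and Chsy3, a chondroitin synthase, rose with BMP4 (1.30 ± 0.18 and 1.01 ± 0.10 SE) and Chst15 fell (-0.60 ± 0.10 SE). In each of these genes 1 of 2 probe sets was called. Chsy3 also rose with TGF-β1 (0.57 ± 0.10 SE), as did Chpf2 (0.34). With the block Csgalnact1 was also lower with TGF-β1 (-1.02, adjusted p = 0.0111, against 0.237 without it) and Dse higher (0.33, adjusted p = 0.0444, against 0.104). Of the 7 genes of keratan sulfate synthesis, B4galt4 and the sulfotransferase Chst1 fell with BMP4 (-1.47 ± 0.15 and -0.63 ± 0.15 SE), while B3gnt2, which extends the chain, rose with TGF-β1 (0.59 ± 0.14 SE) and Chst2 was lower with the block (-0.44, adjusted p = 0.0296, against 0.141). The median of the chondroitin list was 0.03 with TGF-β1 and 0.09 with BMP4, and that of the keratan list was 0.07 with TGF-β1 and -0.19 with BMP4.

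Sulfate for these chains, and for the tyrosines that are sulfated in fibromodulin and osteomodulin, comes from transporters and from the synthases of the sulfate donor. Of 8 such genes 4 rose with BMP4 and 0 fell, against 3.45% and 4.51% of all genes. Papss2 rose by 3.22 ± 0.39, the sulfate transporter Slc26a2 by 1.75 ± 0.18, Papss1 by 0.47 and the tyrosine sulfotransferase Tpst2 by 0.42 (limma). With TGF-β1 none of the 8 was called (2 had an unadjusted p under 0.05), against 2.54% of all genes higher and 4.21% lower. Papss2 differed by 1.01 ± 0.39 with TGF-β1 (SE, adjusted p = 0.192, or 0.00764 with the block). Of 11 proteases that can cleave members or mature them, counted with the enhancer Pcolce, Htra1 rose with both factors, by 1.63 ± 0.08 with TGF-β1 and by 0.45 ± 0.08 with BMP4. Adamts5, an aggrecanase, fell with both (-0.60 and -0.67). Mmp2 and Bmp1, whose product trims probiglycan, fell with BMP4 (-0.49 for Mmp2, and -0.54 for Bmp1 with 1 of its 3 probe sets called).

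**Figure D4:**
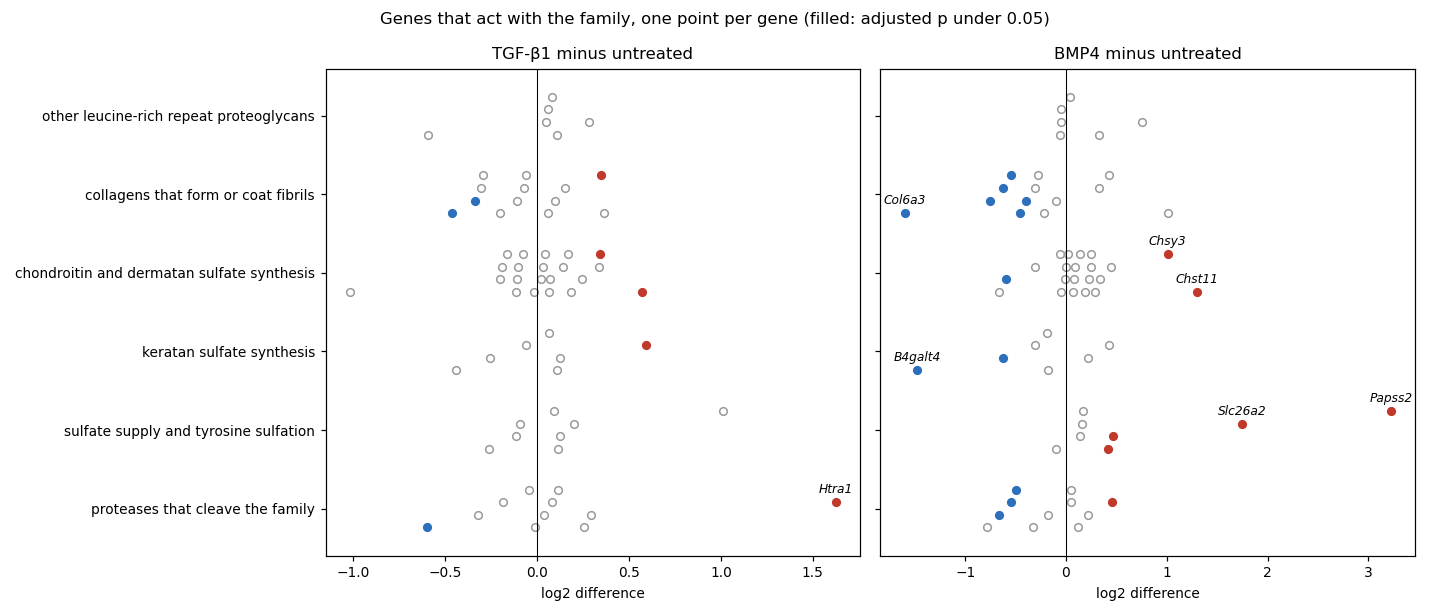
Log2 difference (x axis) of each measured gene in 6 lists of genes that act with the family, for TGF-β1 minus untreated (left) and BMP4 minus untreated (right), with filled points where the adjusted p was under 0.05 (red higher, blue lower) and axes of different range. With BMP4 the 6 filled collagens lie to the left of 0 and the 4 filled genes of sulfate supply to the right, up to 3.22 for Papss2.

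Across the 9 arrays the genes with the pattern most like each member were found by Pearson's correlation, which is a description over arrays that share treatments and repeats. Fmod was followed most closely by Oaf (r = 0.988), Fgf21 (0.985) and Mkx (0.983), a transcription factor of tendon. Bgn was followed by Zfp598 (0.994), Rgcc (0.984) and Adamtsl2 (0.983), and Chad by Neto2 (0.961), Clcn6 (0.959) and D630004K10Rik (0.957). Omd lay closest to Spaca1 (0.986) and to the cartilage matrix genes Matn4 (0.986) and Col9a1 (0.982). Dcn lay closest to Ackr3 (0.985), Axl (0.984) and Slc23a2 (0.980). Aspn was matched by Fdps (0.983), Dlg2 (0.977) and Mia (0.972), Prelp by Syt11 (0.980), Dkk3 (0.968) and Vwa1 (0.967), and Ogn by Rsrp1 (0.984), F13a1 (0.976) and Rp2 (0.975). For Lum the nearest were Ift80 (0.986), Mccc2 (0.976) and Glrx (0.974), and for Kera Zc3h12c (0.953), Cbx6 (0.945) and Tgfbrap1 (0.944). No member was among the 3 nearest genes of another member. With only 10 members among 18193 genes, this does not show whether the members vary together.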

How the data were processed

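RNA of the 9 cultures was amplified in cDNA cycles from 50 ng of total RNA, labelled with biotin and hybridized to Affymetrix Mouse 430 2.0 arrays. The deposited log2 values were made by the authors in GeneSpring, with background subtraction and RMA at default settings (versions not stated). Each of the 45101 probe sets had a median of 0 over its 9 arrays (tolerance 1e-06). The number of arrays limits precision, and no depth applies. The 64 control probe sets were left out and no filter on signal was used. Of the 45037 tested, 34945 had 1 gene symbol, 932 several and 9160 none in the platform annotation, and 0 symbols changed through RefSeq. No pair of arrays was identical (0 pairs).

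The 3 groups were fitted in 1 linear model over all 9 arrays with limma 3.58.1 in R 4.3.3 (6 residual and 4.01 prior degrees of freedom). P values are two-sided, adjusted by Benjamini-Hochberg over 45037 probe sets and called under 0.05. Errors are SE of the log2 difference unless SD is written. A gene was represented by its probe set with the largest variance. The code was tested on simulated data. Members, lists, motifs and tests were chosen with earlier results of these data known. Named genes were all members, up to 4 called genes of each list and comparison by size, and the 3 most correlated genes of each member. Genes named for the replicate number or called only with the block, the markers of other cells, and Ecm2, were chosen after their values were seen. Deviations of same-numbered arrays from their group means correlated at 0.14, 0.49 and 0.28 for TGF-β1 with untreated and at 0.29, 0.50 and 0.38 for TGF-β1 with BMP4. Between arrays of different numbers the correlations ran from -0.39 to 0.20 for TGF-β1 with untreated. They ran from -0.35 to 0.00335 for TGF-β1 with BMP4. The 0.20, of TGF-β1 array 3 with untreated array 1, lay above the 0.14 of the arrays numbered 1. The numbers were taken to pair these samples, but this was inferred from the same data. Calls made only with the block, such as those of Aspn and Omd, rest on it. For BMP4 with untreated the same-number values were -0.05, 0.50 and 0.24, and the numbers were not taken as pairs in that comparison. The fit with a block nevertheless used all 9 arrays with a shared term for the number. Its p values for TGF-β1 therefore also treat BMP4 and untreated arrays of the same number as a block. Python 3.11.15 with matplotlib 3.10.9 drew the figures. RefSeq tables gave promoters and neighbours.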

Additional observations from a re-analysis of the deposited data

How the results depend on the processing

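The direction of the 10 calls with TGF-β1 against untreated cultures held on leaving out each array (10 to 10 member probe sets), and the same 10 probe sets remained. The count for TGF-β1 against BMP4 was 10 to 11, and that for BMP4 against untreated 0 to 2, where leaving out BMP4 replicate 2 lost Dcn and leaving out TGF-β1 replicate 2 added Chad. For BMP4 against untreated the count was 5 in the fit with a replicate block (4 higher, both probe sets of Aspn and those of Omd and Chad, against 4.01% of all probe sets, and 1 lower, Dcn, against 5.02%), with adjusted p of 0.00642 for Chad, 0.00713 for Omd and 0.0153 and 0.000489 for Aspn, 0 with 2 groups fitted alone and 2 after renewed quantile normalization. The methods' t-test at an unadjusted p under 0.05 and a 2-fold change gave 7 member probe sets for TGF-β1 against untreated, 0 for BMP4 against untreated and 6 for TGF-β1 against BMP4. Over all 45037 probe sets it gave 253 for TGF-β1 against untreated and 433 for BMP4 against untreated. Its total for TGF-β1 against BMP4 is not given here. After Benjamini-Hochberg it gave 0 in all 3 comparisons, and 0, 0 and 11 over all probe sets. The arrays numbered 2 gave 4 to 7 calls. For BMP4 against untreated, Epyc and Chadl were also called higher with the block, as were 3 of the 13 collagens that form or coat fibrils. The block changed no other member call in the comparisons with TGF-β1 than those given above.

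Directions turned only in comparisons in which the member was not called. Without the 3 arrays numbered 2, Ogn and Kera with TGF-β1 against untreated were 0.0761 and 0.0190, and Lum with BMP4 was 0.0498. Ogn was 0.0539 after quantile normalization, and Aspn for TGF-β1 against BMP4 was -0.14 as the mean of its probe sets. On leaving out each array, TGF-β1 against untreated ran from -0.23 to 0.27 for Ogn and from -0.16 to 0.0442 for Kera. BMP4 against untreated ran from -0.31 to 0.19 for Ogn, from -0.20 to 0.0987 for Lum and from -0.0045 to 0.0459 for Bgn. TGF-β1 against BMP4 ran from -0.50 to 0.55 for Aspn and from -0.11 to 0.30 for Ogn. The cause was not tested. Of the single-gene values 405 kept direction and side of the threshold, 14 passed only in the alternative, 11 passed only in the main analysis and 20 turned sign. Signal over background is unknown, which limits all members alike.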
